A study of Mus musculus with 12 samples.

Results

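The comparison was between mouse skin taken 24 h after an injection of RNAdjuvant and untreated mouse skin. It used 6 of the 12 arrays of the series, the 3 that the labels title as 24 h after treatment and the 3 they title as not treated, and all 19938 genes that could be read from a probe set with 1 gene symbol, each at its brightest probe set. All animals were female Balb/c mice, and no genetic alteration is labelled. The 24 h group had received RNAdjuvant in the dermis at a dose the labels give as 25 mg (the unit was not checked). The control group had received no injection, so effects of the injection itself, of the carrier and of the RNA cannot be told apart. The other 6 arrays, 3 at 1.5 h and 3 at 6 h after the same injection, were used for the shared estimate of the spread and to ask whether a gene at 24 h stood above or below its earlier level. The labels call the 3 samples of a group biological replicates without saying whether they were separate mice. The p-values set each difference against the spread between samples within groups, estimated over all 12 arrays. Whether that is a spread between mice is not known.

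RNAdjuvant is a non-coding RNA packed with a cationic carrier, made to be given with a vaccine. RNA that enters a cell this way is read by endosomal Toll-like receptors and by the cytosolic helicases RIG-I and MDA5, which switch on type I interferon and inflammatory cytokines. Interferon then acts on neighbouring cells and switches on genes that carry a DNA element called the interferon-stimulated response element (ISRE), and chemokines draw monocytes, neutrophils, natural killer cells and T cells into the skin.

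Whole skin biopsies were read on Affymetrix Mouse Gene 1.0 arrays, and values are RMA log2 intensities. The medians of the 6 arrays lay between 5.56 and 5.7. Pairs of arrays within a group correlated at 0.98 to 0.987 over all 35556 probe sets, and pairs across the 2 groups at 0.964 to 0.982. The samples held the transcripts of skin: in all 6 arrays the keratinocyte keratins Krt5, Krt14 and Krt10 and the fibroblast proteoglycan Dcn were bright, with untreated means of 12.07 ± 0.05, 11.59 ± 0.05, 12.62 ± 0.04 and 12.71 ± 0.07 (SD, n = 3). Array intensities of a biopsy do not show whether a lower value means fewer cells of a type or less RNA per cell.

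Some of the genes with the largest rises carry the interferon element in the sequence before their start, and those stretches are shown here because many of these genes are known interferon targets. Promoters came from RefSeq on GRCm38.p6, matched by gene ID, and the 250 bases before each gene's start were searched on both strands for the ISRE core, GAAA followed by any 2 bases and a further GAAA. Of the 25 genes with the largest rises, 22 had a promoter entry and 10 of these held the core. The stretches below run 5′ to 3′ on the gene's own strand, with the core nearest the gene's start in capitals (read as TTTC, 2 bases, TTTC where it lies on the opposite strand). Any further core is left in small letters, as in the left flank of the Ifit1 stretch.
Saa3: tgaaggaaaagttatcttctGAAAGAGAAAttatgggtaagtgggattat
Gzma: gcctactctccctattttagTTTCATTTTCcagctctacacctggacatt
Fcgr4: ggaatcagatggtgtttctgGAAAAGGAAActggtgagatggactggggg
Cxcl10: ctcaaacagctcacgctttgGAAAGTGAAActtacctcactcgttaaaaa
Rsad2: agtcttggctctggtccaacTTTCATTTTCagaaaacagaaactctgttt
Ifit1: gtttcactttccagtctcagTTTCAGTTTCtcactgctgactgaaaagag
Ifit3: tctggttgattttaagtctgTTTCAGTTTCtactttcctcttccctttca
Phf11a: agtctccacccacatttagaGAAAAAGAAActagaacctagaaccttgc
Trim30d: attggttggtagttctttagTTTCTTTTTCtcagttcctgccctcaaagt
They lie at chr7:46715772-46715821 on the minus strand, chr13:113101049-113101098 (minus), chr1:171018833-171018882 (plus), chr5:92349073-92349122 (minus), chr12:26456543-26456592 (minus), chr19:34640784-34640833 (plus), chr19:34583387-34583436 (plus), chr14:59297523-59297571 (minus) and chr7:104507861-104507910 (minus), all upstream of the annotated start. The first base of the core in capitals lay between 29 (Phf11a) and 213 (Cxcl10) bases before the start. The tenth gene was Ifit3b, at chr19:34607783-34607832 on the plus strand, whose stretch has the same letters as that of Ifit3.

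Among all genes tested with a promoter entry, 2.92% (455 of 15563) held the ISRE core in this window. It stood in 58 of 396 promoters of genes that rose at 24 h (14.6%) and in 1 of 122 of genes that fell (0.82%). In the gene lists it stood in 12 of 36 promoters of type I interferon-stimulated genes, in 4 of 4 of the interferon-inducible GTPases, in 2 of 23 of the granzymes and killer cell receptors and in 3 of 29 of the monocyte markers. These are counts of letters in a window, with no test, and a match is not a bound site.

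At 24 h, 670 of 19938 genes differed from untreated skin by limma at an adjusted p under 0.05 (3.36% of the genes tested): 509 were higher (2.55%) and 161 lower (0.808%). The rises were the larger changes: 281 genes were at least 2-fold higher and 11 at least 2-fold lower. In each of the 670 genes the groups did not overlap; the same held for 23.3% of all genes. The median change over all genes was 0 on the log2 scale. Without untreated replicate 2 the count of changed genes was 423, and without 24 h replicate 3 it was 440. The count of lower genes varied more than that of higher genes: leaving out untreated replicate 2 gave 66, untreated replicate 3 gave 67, and 24 h replicates 3 and 1 gave 75 and 96. It was 288 with array weights, 239 with dim genes left out (those with a mean under the median gene's), 103 with arrays centred on their medians, 95 with no moderation of the variance and 33 at an adjusted p under 0.01.

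**Figure D1:**
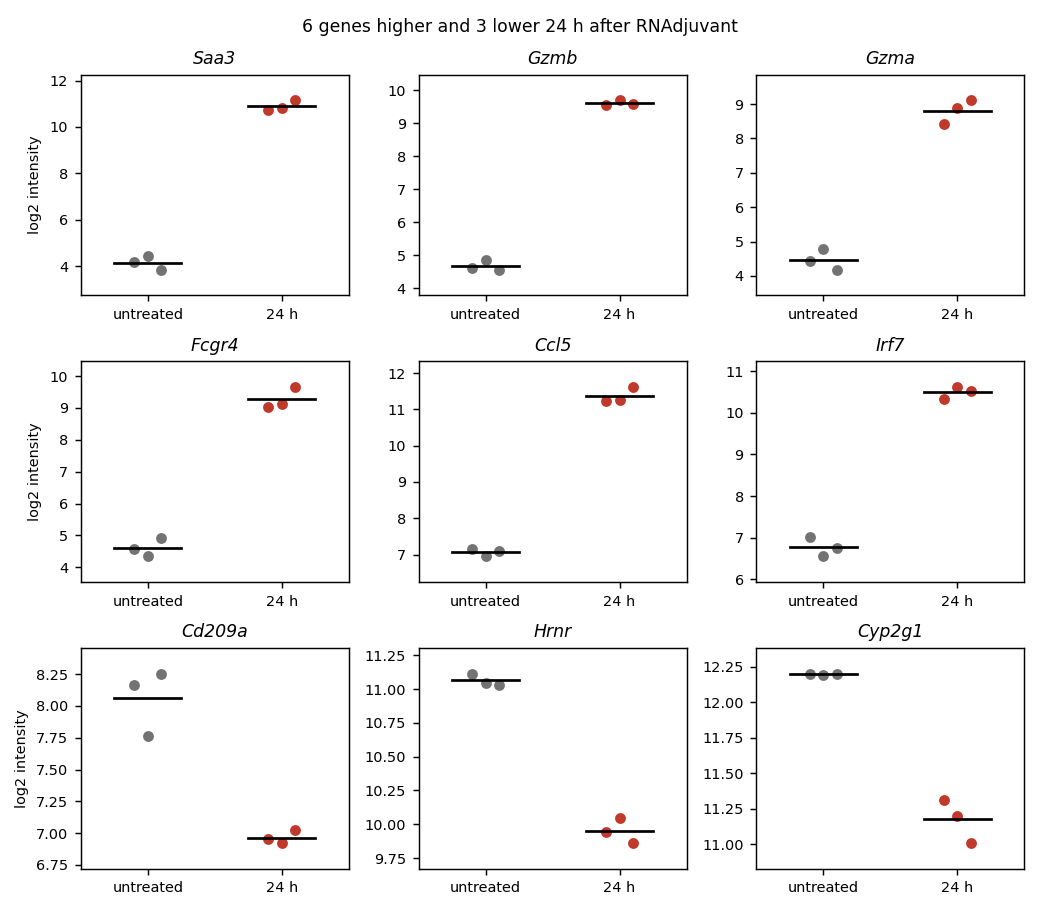
Log2 intensity (vertical axes, one scale per gene) of 9 genes in the 3 untreated arrays (grey) and the 3 arrays at 24 h (red); each point is an array and the bar is the mean. In all 9 panels the groups stay apart: Saa3 goes from at most 4.42 to at least 10.72, while Hrnr goes from at least 11.03 to at most 10.05.

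The acute phase genes held the largest change at 24 h. Saa3 encodes a serum amyloid A that macrophages and epithelia make locally, and read 4.16, 4.42 and 3.85 in untreated skin and 10.72, 10.81 and 11.16 at 24 h. The groups lay far apart, with the treated samples close together. Its difference was 6.75 ± 0.23 on the log2 scale (SE), 108-fold higher, with an adjusted p of 1.97e-09. Lcn2, which encodes lipocalin 2, a protein that withholds iron from bacteria, read 6.35, 5.86 and 6.63 in untreated skin and 9.12, 9.05 and 9.66 at 24 h, and rose by 2.998 (SE 0.50, adjusted p = 0.00285). Ptx3 encodes a soluble pattern recognition protein and rose by 2.80 (SE 0.36, adjusted p = 0.000303). The liver-type serum amyloids did not pass the test: the change was 0.45 (SE 0.24, adjusted p = 0.374) for Saa1 and 0.55 (SE 0.29, adjusted p = 0.364) for Saa2, both looked at after their values were seen. Of the 20 acute phase and iron-binding genes measured, 6 rose and 1 fell, with a median of 0.41. The gene that fell was Slc40a1, which encodes the iron exporter ferroportin, at -0.67 (SE 0.14, adjusted p = 0.0148); that call was lost on omitting any one of untreated replicates 1 and 2 and 24 h replicate 1 (highest adjusted p 0.0784). The count of higher members was 3 without any one of untreated replicate 3 and 24 h replicates 2 and 3.

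Few interferon genes were called at 24 h. Ifnb1, which encodes interferon beta, read 3.32, 3.59 and 3.35 in untreated skin and 4.23, 4.53 and 4.43 at 24 h. The groups did not overlap, and the difference was 0.98 ± 0.16 on the log2 scale (SE), 1.97-fold higher, with an adjusted p of 0.00312. All 6 values were dim: with values raised to a floor of 4 the call was lost (adjusted p = 0.282). Ifng, which encodes interferon gamma, read 4.29, 4.24 and 3.96 in untreated skin and 4.66, 4.35 and 4.65 at 24 h, a change of 0.39 (SE 0.17, adjusted p = 0.249). Of the 23 interferon genes, receptors and kinases measured, 2 rose (8.7%, beside 2.55% of all genes tested) and none fell, with a median of 0.06. The second was Ifnar2, which encodes a chain of the type I interferon receptor, at 0.77 (SE 0.15, adjusted p = 0.00853); its call was lost on omitting untreated replicate 2 (highest adjusted p 0.0514).

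The list of interferon targets, chosen with earlier results of these data known, rose as a whole. All 47 measured members of the type I interferon-stimulated gene list rose (2.55% of all genes tested were higher), by 0.68 to 3.98 on the log2 scale with a median of 2.23, and this count was 47 whichever library was left out. Rsad2 encodes viperin, an enzyme that makes a chain-terminating nucleotide, and read 5.39, 5.40 and 5.03 in untreated skin and 9.28, 9.47 and 8.83 at 24 h. Its difference was 3.92 ± 0.25 on the log2 scale (SE), 15.1-fold higher, with an adjusted p of 5.02e-07. Irf7 encodes the transcription factor that amplifies interferon production and read 7.02, 6.55 and 6.76 in untreated skin and 10.32, 10.62 and 10.51 at 24 h. The treated values lay within a narrow band, above all untreated ones, with a difference of 3.71 ± 0.23 on the log2 scale (SE), 13.1-fold higher, with an adjusted p of 3.94e-07. The genes for RNA-binding IFIT proteins rose by 3.73 (SE 0.27, adjusted p = 1.45e-06) for Ifit3, 3.61 (SE 0.23, adjusted p = 5.02e-07) for Ifit3b and 3.46 (SE 0.20, adjusted p = 2.49e-07) for Ifit1; Ifit3 and Ifit3b are near copies, and whether their probes tell them apart was not checked. Trim30d, of a family of ubiquitin ligases, rose by 3.25 (SE 0.29, adjusted p = 9.23e-06). Bst2 encodes tetherin, which holds budding virus at the cell surface, and rose by 2.96 (SE 0.14, adjusted p = 5.59e-08). Mx2, which encodes an antiviral dynamin-like GTPase, rose by 3.15 (SE 0.24, adjusted p = 2.52e-06), and its relative Mx1 by 2.48 (SE 0.33, adjusted p = 0.000437).

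Families of interferon-inducible genes were looked at after their values were seen, by the start of their symbol. Their members can also belong to the gene lists, as Slfn4 does to that of monocyte markers. In the Schlafen family 8 of 10 measured members rose, led by Slfn1 at 3.60 (SE 0.32, adjusted p = 1.10e-05) and Slfn4 at 3.59 (SE 0.33, adjusted p = 1.28e-05). All 3 Phf11 genes rose, led by Phf11a at 3.39 (SE 0.24, adjusted p = 1.19e-06). Of 10 genes of the Ifi20 family, which encode DNA-binding PYHIN proteins, 9 rose, led by Ifi209 at 3.37 (SE 0.32, adjusted p = 2.02e-05). Of 11 Oas genes, whose products make the activator of RNase L, 6 rose, and of 11 Parp genes 5 rose. In the Trim family 6 of 59 members rose and none fell.

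All 9 interferon-inducible GTPases measured rose, by 2.17 to 3.12 with a median of 2.71; these proteins coat and break the vacuoles of intracellular pathogens. Gbp3 read 6.77, 6.55 and 6.53 in untreated skin and 9.71, 9.81 and 9.68 at 24 h, with a difference of 3.12 ± 0.15 on the log2 scale (SE), 8.69-fold higher, with an adjusted p of 5.21e-08. Iigp1 rose by 3.10 (SE 0.20, adjusted p = 5.02e-07) and Irgm1, which regulates the family, by 3.04 (SE 0.17, adjusted p = 2.34e-07). Of 15 interferon gamma targets 11 rose, with a median of 1.28. Cxcl9, which encodes a ligand of the lymphocyte receptor CXCR3, read 6.57, 7.17 and 6.78 in untreated skin and 10.97, 11.20 and 11.16 at 24 h, a difference of 4.28 ± 0.25 on the log2 scale (SE), 19.4-fold higher, with an adjusted p of 3.17e-07. Fcgr1, the high-affinity IgG receptor of macrophages, rose by 3.16 (SE 0.23, adjusted p = 1.45e-06), and Nos2, which encodes the inducible nitric oxide synthase, by 2.45 (SE 0.25, adjusted p = 4.22e-05). Both lists share members with others, and many interferon gamma targets also answer to type I interferon.

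The skin at 24 h also held more transcript for part of the machinery that senses nucleic acids. Of 26 nucleic acid sensors and adaptors, 12 rose (46.2%, beside 2.55% of all genes tested) and none fell, with a median of 0.70. The list is not confined to RNA sensors, and its largest rise was that of Irf7, given above. Dhx58 encodes LGP2, a helicase that tunes MDA5, and rose by 2.90 (SE 0.20, adjusted p = 1.07e-06). Ifih1, which encodes MDA5, read 7.47, 7.48 and 7.57 in untreated skin and 9.20, 9.40 and 9.21 at 24 h, a difference of 1.77 ± 0.11 on the log2 scale (SE), 3.4-fold higher, with an adjusted p of 5.02e-07. Ddx58, which encodes RIG-I, rose by 1.68 (SE 0.17, adjusted p = 2.57e-05). Zbp1, a sensor of left-handed nucleic acid, rose by 3.10 (SE 0.23, adjusted p = 1.69e-06). Among the endosomal receptors, Tlr9 rose by 1.86 (SE 0.20, adjusted p = 6.52e-05). Tlr7, the endosomal receptor for single-stranded RNA, read 6.71, 5.64 and 6.06 in untreated skin and 6.48, 6.58 and 7.11 at 24 h. Its groups overlapped, since untreated replicate 1 lay above 2 of the treated samples, and the change was 0.59 (SE 0.24, adjusted p = 0.223). Without untreated replicate 1 the change in Tlr7 passed the test, at 0.87 (adjusted p = 0.0426). The adaptor gene Mavs and the factor gene Irf3, looked at after their values were seen, changed by -0.18 (SE 0.12, adjusted p = 0.48) and -0.10 (SE 0.10, adjusted p = 0.677).

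Most class I and few class II genes of antigen presentation were called. Of 16 genes of the MHC class I pathway 13 rose, with a median of 1.00, and the count was 13 whichever library was left out. H2-T24, a non-classical class I gene, rose by 2.16 (SE 0.17, adjusted p = 3.42e-06). The subunits that turn the proteasome into the immunoproteasome rose by 1.69 (SE 0.16, adjusted p = 2.32e-05) for Psmb10, 1.61 (SE 0.15, adjusted p = 1.45e-05) for Psmb8 and 1.40 (SE 0.16, adjusted p = 8.38e-05) for Psmb9, and Tap1, which encodes a chain of the peptide transporter, by 1.28 (SE 0.14, adjusted p = 7.22e-05). Of 11 genes of the class II pathway 1 rose (9.09%, beside 2.55% of all genes tested), with a median of 0.05. That gene was Ctss, which encodes the lysosomal protease cathepsin S, at 1.29 (SE 0.22, adjusted p = 0.00326). The class II genes themselves, looked at after their values were seen, did not pass the test: H2-Aa read 10.91, 10.55 and 10.69 in untreated skin and 10.69, 10.82 and 10.80 at 24 h, and Cd74, the invariant chain, read 11.31, 11.08 and 11.18 in untreated skin and 11.01, 11.21 and 11.13 at 24 h. The groups overlapped in both genes. Whether the 2 pathways differed was not tested.

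**Figure D2:**
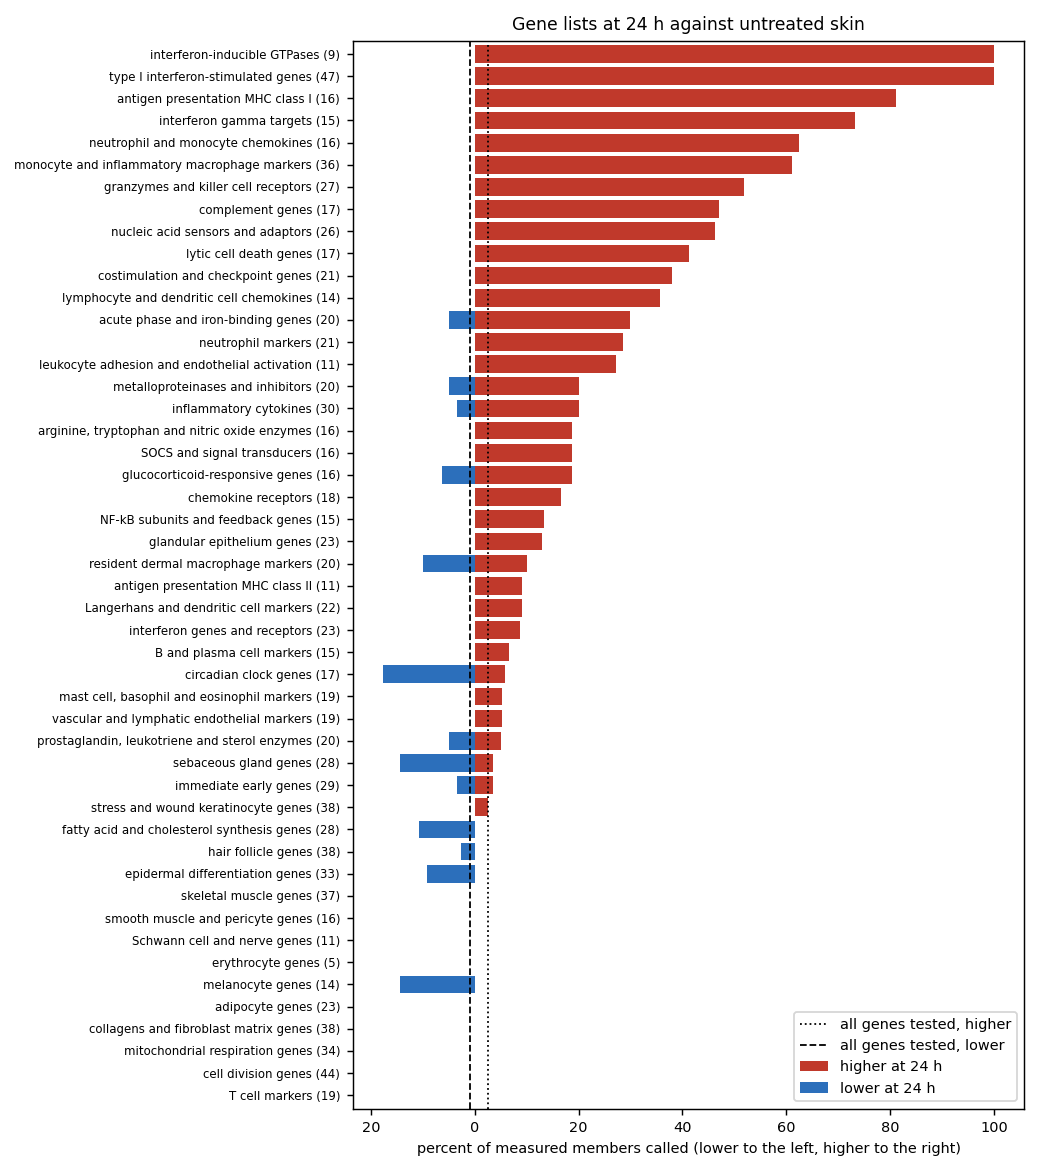
Share of the measured members of each gene list (number in brackets) called higher (red, to the right) or lower (blue, to the left) at 24 h against untreated skin, in percent; the dotted and dashed lines give the shares among all genes tested, 2.55% and 0.808%. The lists of type I interferon-stimulated genes and interferon-inducible GTPases reach 100%, while T cell, collagen, muscle, mitochondrial and cell division lists have no bar.

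Chemokine transcripts were among the largest rises. Of 16 chemokine genes that act on neutrophils and monocytes 10 rose, with a median of 0.98. Ccl2, the main ligand of the monocyte receptor CCR2, read 6.82, 6.77 and 6.96 in untreated skin and 10.66, 10.97 and 10.62 at 24 h. The treated samples exceeded every untreated one by several log2 units, a difference of 3.90 ± 0.23 on the log2 scale (SE), 14.9-fold higher, with an adjusted p of 3.17e-07. The other CCR2 ligands Ccl7 and Ccl12 rose by 3.16 (SE 0.23, adjusted p = 1.45e-06) and 3.30 (SE 0.31, adjusted p = 1.71e-05), and the macrophage inflammatory chemokines Ccl3 and Ccl4 by 3.38 (SE 0.31, adjusted p = 1.55e-05) and 2.81 (SE 0.25, adjusted p = 1.10e-05). Of 14 chemokine genes that act on lymphocytes and dendritic cells 5 rose, with a median of 0.30. Ccl5, which draws T cells and killer cells, read 7.15, 6.95 and 7.09 in untreated skin and 11.22, 11.25 and 11.62 at 24 h, a difference of 4.30 ± 0.37 on the log2 scale (SE), 19.7-fold higher, with an adjusted p of 7.07e-06. Cxcl10, a CXCR3 ligand, read 6.28, 6.10 and 5.94 in untreated skin and 10.27, 10.43 and 9.57 at 24 h, with 24 h replicate 3 the lowest of the treated samples. Its difference was 3.98 ± 0.24 on the log2 scale (SE), 15.8-fold higher, with an adjusted p of 3.91e-07, and that of Cxcl11, which binds the same receptor, was 4.05 (SE 0.22, adjusted p = 1.61e-07). The fifth was Xcl1, a chemokine that killer cells release, at 0.84 (SE 0.15, adjusted p = 0.00562).

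Fewer receptors for these ligands were called. Of 18 chemokine receptor genes 3 rose (16.7%, beside 2.55% of all genes tested), with a median of 0.21. Ccr1 read 3.21, 3.20 and 4.21 in untreated skin and 4.89, 5.38 and 5.32 at 24 h; no treated value reached down into the untreated range, and the difference was 1.66 ± 0.26 on the log2 scale (SE), 3.15-fold higher, with an adjusted p of 0.00199. Ccr2, the receptor of inflammatory monocytes, rose by 1.28 (SE 0.24, adjusted p = 0.00717) and Ccrl2, a receptor that holds chemerin without signalling, by 1.22 (SE 0.23, adjusted p = 0.00798). Cxcr3, the receptor of Cxcl9, Cxcl10 and Cxcl11, changed by 0.23 (SE 0.17, adjusted p = 0.55), looked at after its value was seen. Of 11 genes of leukocyte adhesion 3 rose, with a median of 0.60, and 5 rose without any one of 1.5 h replicates 1 and 2 and 6 h replicate 1. They were Vcam1, which encodes an endothelial ligand of leukocyte integrins, at 1.11 (SE 0.14, adjusted p = 0.000262), Itgal, a chain of the integrin LFA-1, at 0.92 (SE 0.15, adjusted p = 0.00199), and Itgb2, the partner of Itgal, at 1.13 (SE 0.24, adjusted p = 0.0202). The call for Itgb2 was lost on omitting any one of untreated replicate 2 and 24 h replicates 2 and 3 (highest adjusted p 0.0947).

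Inflammatory cytokines were a smaller part of the picture. Of 30 measured, 6 rose and 1 fell, with a median of 0.14. Il6, a fever cytokine and an inducer of acute phase genes, read 2.66, 3.74 and 3.81 in untreated skin and 5.19, 5.67 and 4.98 at 24 h. The groups did not overlap, but untreated replicate 1 lay about 1 log2 unit below the other untreated samples. The difference was 1.88 ± 0.40 on the log2 scale (SE), 3.67-fold higher, with an adjusted p of 0.0183, and the call was lost on omitting either of untreated replicate 1 and 24 h replicate 2 (highest adjusted p 0.0759). The untreated values were dim: with values raised to a floor of 4 the change was 1.28 and the call was lost (adjusted p = 0.172). Tnf rose by 1.19 (SE 0.18, adjusted p = 0.00117), Il1b by 1.12 (SE 0.20, adjusted p = 0.00494) and Il10, an anti-inflammatory cytokine, by 1.11 (SE 0.19, adjusted p = 0.00433). Tnfsf10, the death ligand TRAIL, rose by 1.28 (SE 0.20, adjusted p = 0.00158). The member that fell was Il1f8, an epithelial cytokine of the interleukin 36 group, which read 6.38, 6.57 and 6.56 in untreated skin and 5.45, 5.33 and 5.84 at 24 h. All treated samples lay below all untreated ones, a difference of -0.96 ± 0.17 on the log2 scale (SE), 1.95-fold lower, with an adjusted p of 0.00461. Without 24 h replicate 3 a second member fell.

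Markers of monocytes and inflammatory macrophages rose broadly. Of 36 measured 22 rose and none fell, with a median of 1.05, against 2.55% of all genes higher; leaving out single libraries gave 17 to 23. Their summed linear intensity ranged over 10400 to 14800 among the untreated arrays and 20500 to 28100 among the treated ones. Fcgr4, an activating IgG receptor of monocytes, read 4.58, 4.34 and 4.92 in untreated skin and 9.04, 9.11 and 9.66 at 24 h. The lowest treated value exceeded the highest untreated one by about 4 log2 units, and the difference was 4.66 ± 0.27 on the log2 scale (SE), 25.3-fold higher, with an adjusted p of 2.49e-07. Ms4a4c, of a family of tetraspan membrane proteins, read 6.30, 5.21 and 6.07 in untreated skin and 9.84, 10.50 and 10.66 at 24 h, a difference of 4.48 ± 0.35 on the log2 scale (SE), 22.3-fold higher, with an adjusted p of 2.91e-06. Ms4a4b, a relative that T cells and killer cells also express, rose by 2.75 (SE 0.36, adjusted p = 0.000435). In the whole Ms4a family, chosen by symbol after its values were seen, 7 of 19 members rose. Plac8, another gene of blood monocytes named after its values were seen, read 7.84, 7.62 and 8.58 in untreated skin and 10.53, 10.65 and 11.03 at 24 h. Other markers did not pass the test: Lyz2, which encodes the lysozyme of all macrophages, changed by 0.09 (SE 0.17, adjusted p = 0.851), Csf1r, the growth factor receptor of the lineage, by -0.22 (SE 0.18, adjusted p = 0.574), and Cd14, the endotoxin co-receptor, by 0.20 (SE 0.20, adjusted p = 0.656). These last 3 were also named after their values were seen.

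Neutrophil markers gave a mixed picture. Of 21 measured 6 rose, with a median of 0.48. Clec4e, which encodes the receptor Mincle and is shared with monocytes, read 3.78, 3.20 and 3.46 in untreated skin and 6.29, 6.78 and 7.41 at 24 h, a difference of 3.35 ± 0.24 on the log2 scale (SE), 10.2-fold higher, with an adjusted p of 1.45e-06. Its relative Clec4d rose by 1.69 (SE 0.23, adjusted p = 0.000609). Retnlg, a resistin-like gene of neutrophils, rose by 1.38 (SE 0.33, adjusted p = 0.0336), but the call was lost on omitting any one of untreated replicates 2 and 3, 6 h replicate 2, and 24 h replicates 2 and 3 (highest adjusted p 0.129). Ltf, which encodes lactoferrin and is also a gland product, rose by 1.84 (SE 0.46, adjusted p = 0.0455), a call lost on omitting any one of untreated replicates 1, 2 and 3, 1.5 h replicate 3, and 24 h replicates 1, 2 and 3 (highest adjusted p 0.153). The calprotectin genes, named after their values were seen, did not pass: S100a9 changed by 1.37 (SE 0.42, adjusted p = 0.104) and S100a8 by -0.67 (SE 0.33, adjusted p = 0.323). Ly6g, a defining neutrophil surface marker, changed by 0.41 (SE 0.26, adjusted p = 0.46), and the neutrophil elastase gene Elane by -0.13 (SE 0.12, adjusted p = 0.643).

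Killer cell genes were among the highest risers while T cell markers were not called. Of 27 granzymes and killer cell receptors 14 rose, with a median of 0.72, and single left-out libraries gave 13 to 15. Most of the list was dim: with dim genes left out 5 members were tested and 4 rose. Gzmb, which encodes the cytotoxic protease granzyme B, read 4.61, 4.86 and 4.57 in untreated skin and 9.56, 9.71 and 9.58 at 24 h. The 3 treated values lay close together and far above the untreated ones, and the difference was 4.94 ± 0.12 on the log2 scale (SE), 30.6-fold higher, with an adjusted p of 4.11e-11. Gzma, granzyme A, read 4.43, 4.78 and 4.18 in untreated skin and 8.41, 8.89 and 9.12 at 24 h, a difference of 4.34 ± 0.19 on the log2 scale (SE), 20.3-fold higher, with an adjusted p of 3.67e-08. Receptors of natural killer cells followed: Ncr1, which encodes NKp46 and marks the lineage, read 3.88, 4.07 and 4.42 in untreated skin and 5.79, 6.60 and 5.94 at 24 h, a difference of 1.98 ± 0.21 on the log2 scale (SE), 3.95-fold higher, with an adjusted p of 4.22e-05. Klrk1, which encodes the activating receptor NKG2D, rose by 2.14 (SE 0.17, adjusted p = 3.34e-06), and Il2rb, the interleukin 2 and 15 receptor chain these cells depend on, by 2.03 (SE 0.18, adjusted p = 9.45e-06). The pore-forming perforin gene Prf1, named after its values were seen, read 6.24, 6.05 and 5.81 in untreated skin and 7.02, 7.91 and 7.60 at 24 h. The summed linear intensity of the list ranged over 718 to 763 among the untreated arrays and 2490 to 3210 among the treated ones.

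The killer gene changes were not even within the granzyme family. Of 10 Gzm genes measured 2 rose, Gzma and Gzmb; Gzmc changed by 0.72 (SE 0.20, adjusted p = 0.0797) and Gzmk by 0.25 (SE 0.13, adjusted p = 0.338), both named after their values were seen. Of 19 T cell markers none was called in either direction, with a median of 0.24, and their summed intensity ranged over 3160 to 3690 among the untreated arrays and 3010 to 4000 among the treated ones. The largest change was in Cd2, an adhesion receptor of T and killer cells, which read 6.77, 6.26 and 6.29 in untreated skin and 6.93, 7.17 and 7.42 at 24 h, a change of 0.73 (SE 0.30, adjusted p = 0.242). Cd8a, the co-receptor of cytotoxic T cells, read 5.27, 5.13 and 4.90 in untreated skin and 5.59, 5.81 and 5.83 at 24 h, a change of 0.64 (SE 0.37, adjusted p = 0.408). The groups did not overlap in Cd2 or in Cd8a, yet neither passed the test over all 12 arrays; fitted with the 6 arrays alone, Cd8a passed (adjusted p = 0.0271). Cd3e, a chain of the T cell receptor complex named after its values were seen, read 7.68, 7.48 and 7.53 in untreated skin and 7.28, 7.69 and 7.57 at 24 h, with overlapping groups. Whether killer and T cell genes differed as groups was not tested.

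**Figure D3:**
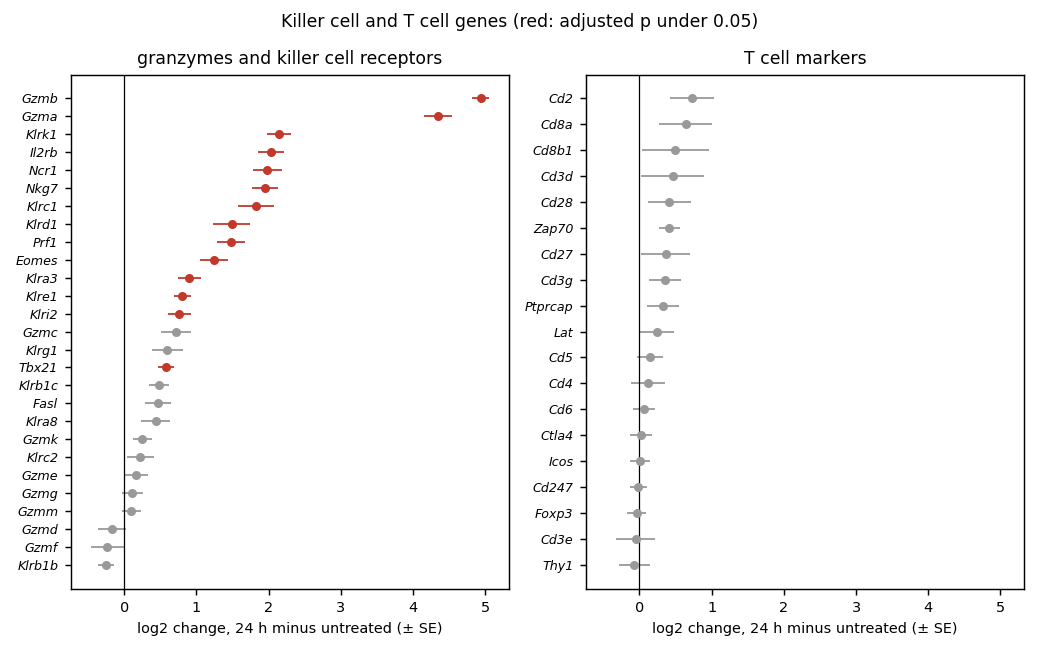
Change from untreated skin to 24 h in log2 units (horizontal axis, bars ± SE) for each of the 27 killer cell genes (left) and 19 T cell markers (right), red where the adjusted p by limma was under 0.05. Gzmb at 4.94 and Gzma at 4.34 lead, 14 killer genes are red, and no T cell marker passes 0.73.

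Other leukocyte lists were closer to their untreated level, with few calls beside the 2.55% higher and 0.808% lower among all genes tested. Of 15 B and plasma cell markers 1 rose: Cd72, a receptor of B cells that myeloid cells can also express, at 1.35 (SE 0.17, adjusted p = 0.00034). Cd79b, a chain of the B cell receptor, was looked at after its values were seen and changed by 0.42 (SE 0.65, adjusted p = 0.795). Of 22 Langerhans and dendritic cell markers 2 rose, Bst2 and Cd40, the costimulatory receptor, at 1.34 (SE 0.25, adjusted p = 0.00751); Cd207, the Langerhans cell lectin, read 7.55, 6.92 and 7.33 in untreated skin and 6.94, 7.24 and 7.47 at 24 h, with overlapping groups. Of 19 mast cell, basophil and eosinophil markers 1 rose, Hdc, which encodes the histamine-making enzyme, at 1.28 (SE 0.15, adjusted p = 0.000132); 2 rose without 6 h replicate 3, and 1 fell without any one of 1.5 h replicates 1 and 2 and 24 h replicate 2.

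Genes of resident dermal macrophages moved both ways. Of 20 measured 2 rose and 2 fell, with a median of -0.32 and 5 members above 0. Cd209a, which encodes a C-type lectin of dermal macrophages and dendritic cells, read 8.16, 7.77 and 8.25 in untreated skin and 6.95, 6.92 and 7.03 at 24 h. All treated values lay below the untreated ones, a difference of -1.09 ± 0.14 on the log2 scale (SE), 2.14-fold lower, with an adjusted p of 0.000257. Cd209b fell by the same measure, -0.97 (SE 0.16, adjusted p = 0.00311), and Cd209c, outside the list but among the largest falls, by -1.23 (SE 0.22, adjusted p = 0.00538). Stab1, a scavenger receptor of tissue macrophages, fell by 1.01 (SE 0.21, adjusted p = 0.0137), a call lost on omitting either of untreated replicate 3 and 24 h replicate 3 (highest adjusted p 0.0768). The rises were Timd4, a phosphatidylserine receptor, at 1.38 (SE 0.32, adjusted p = 0.0292), lost on omitting any one of untreated replicates 1 and 2 and 24 h replicates 2 and 3 (highest adjusted p 0.132), and Adgre1, which encodes F4/80, at 0.89 (SE 0.22, adjusted p = 0.0422), lost on omitting any one of untreated replicates 2 and 3, 1.5 h replicate 3, 6 h replicate 3, and 24 h replicates 2 and 3 (highest adjusted p 0.176). Cd163 and Mrc1, scavenger receptors named after their values were seen, changed by -0.70 (SE 0.21, adjusted p = 0.0896) and -0.52 (SE 0.20, adjusted p = 0.191). Without 6 h replicate 1 the count of lower members was 5, and without untreated replicate 2 it was 4.

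**Figure D4:**
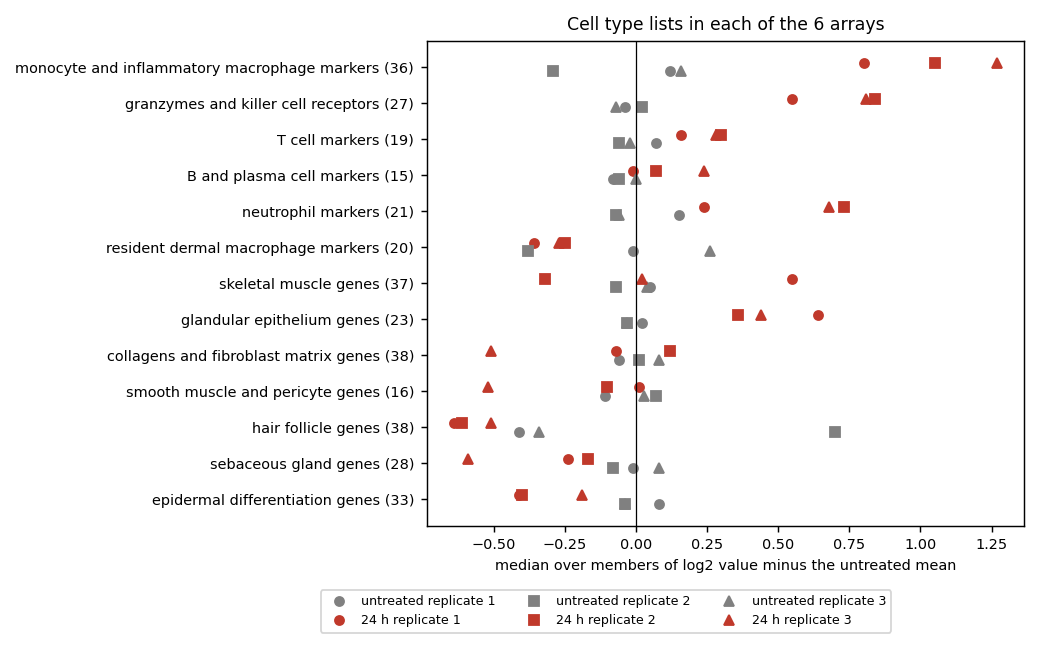
Median over the members of each cell type list of the log2 value minus the gene's untreated mean (horizontal axis), for the 3 untreated arrays (grey) and the 3 at 24 h (red), with replicate numbers as marker shapes. Monocyte and killer cell lists lie to the right in all 3 treated arrays, and the hair follicle list sets untreated replicate 2 apart from the other 5 arrays.

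Complement genes rose in part. Of 17 measured 8 rose (47.1%, beside 2.55% of all genes tested), with a median of 0.49. The count was 4 without untreated replicate 2 and 5 without 24 h replicate 2 or 3. Cfb, which encodes factor B of the alternative pathway, read 8.72, 8.39 and 8.996 in untreated skin and 11.01, 11.16 and 11.18 at 24 h, a difference of 2.41 ± 0.18 on the log2 scale (SE), 5.33-fold higher, with an adjusted p of 1.92e-06. C2, its counterpart in the classical pathway, rose by 1.70 (SE 0.12, adjusted p = 1.07e-06). The classical proteases C1s1 and C1ra rose by 0.87 (SE 0.11, adjusted p = 0.000369) and 0.85 (SE 0.13, adjusted p = 0.00192). C3ar1, the receptor of the C3a fragment, rose by 1.06 (SE 0.23, adjusted p = 0.0195), lost on omitting any one of untreated replicates 2 and 3 and 24 h replicates 2 and 3 (highest adjusted p 0.0957).

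Genes of lytic cell death formed a further group, with 7 of 17 higher and a median of 0.66. Mlkl, which encodes the pore-former of necroptosis, read 4.81, 5.13 and 4.88 in untreated skin and 7.28, 7.59 and 7.43 at 24 h, a difference of 2.49 ± 0.21 on the log2 scale (SE), 5.63-fold higher, with an adjusted p of 6.04e-06. Gsdmd, which encodes the pore-former of pyroptosis, rose by 1.14 (SE 0.11, adjusted p = 1.50e-05), and Casp4, a caspase that senses endotoxin and cleaves gasdermin D, by 1.28 (SE 0.13, adjusted p = 3.30e-05). Of 21 costimulation and checkpoint genes 8 rose, with a median of 0.38. Cd274, which encodes the inhibitory ligand PD-L1, read 6.61, 6.74 and 6.62 in untreated skin and 8.999, 9.04 and 8.69 at 24 h, a difference of 2.26 ± 0.16 on the log2 scale (SE), 4.78-fold higher, with an adjusted p of 1.45e-06. Slamf7, a receptor of killer cells and macrophages, rose by 1.79 (SE 0.19, adjusted p = 6.16e-05).

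Metabolic enzymes of activated macrophages rose as single genes. Of 16 genes of arginine, tryptophan and nitric oxide metabolism 3 rose: Acod1, which makes itaconate, at 2.89 (SE 0.32, adjusted p = 8.70e-05), Nos2 as above, and Gch1, which makes the cofactor of nitric oxide synthase, at 1.62 (SE 0.19, adjusted p = 0.000136). Ido1, which breaks down tryptophan, was looked at after its value was seen and changed by 0.92 (SE 0.51, adjusted p = 0.383). Ch25h, whose product 25-hydroxycholesterol blocks viral entry, rose by 2.29 (SE 0.32, adjusted p = 0.000693). Timp1, an inhibitor of matrix proteases, rose by 2.64 (SE 0.21, adjusted p = 3.42e-06), while Timp2 fell by 0.42 (SE 0.10, adjusted p = 0.0345), lost on omitting any one of untreated replicates 1, 2 and 3 and 24 h replicates 1 and 3 (highest adjusted p 0.128). Stat2, a subunit of the interferon-activated complex, rose by 1.81 (SE 0.15, adjusted p = 5.37e-06), and Stat4, which carries interleukin 12 signals in killer and T cells, by 1.62 (SE 0.32, adjusted p = 0.011), lost on omitting 24 h replicate 3 (highest adjusted p 0.0652) and, with values raised to a floor of 4, at a change of 0.69 (adjusted p = 0.101).

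Falls were small and were seen in epidermal, sebaceous, lipid synthesis, melanocyte and clock lists. Of 33 epidermal differentiation genes none rose, 3 fell (0.808% of all genes were lower), and all 33 had a change below 0, with a median of -0.32. Hrnr, which encodes hornerin of the cornified layer, read 11.11, 11.05 and 11.03 in untreated skin and 9.94, 10.05 and 9.86 at 24 h. The groups were about 1 log2 unit apart, a difference of -1.11 ± 0.11 on the log2 scale (SE), 2.17-fold lower, with an adjusted p of 2.51e-05. Lor, which encodes loricrin, read 12.08, 11.98 and 11.92 in untreated skin and 11.49, 11.58 and 11.52 at 24 h and fell by 0.46 (SE 0.10, adjusted p = 0.0277), lost on omitting any one of untreated replicates 1, 2 and 3 and 24 h replicates 1, 2 and 3 (highest adjusted p 0.1). Krt1 fell by 0.44 (SE 0.11, adjusted p = 0.0436), lost on omitting any one of untreated replicates 1, 2 and 3, 1.5 h replicates 2 and 3, 6 h replicate 2, and 24 h replicates 1, 2 and 3 (highest adjusted p 0.146). The count of lower members was 1 without any one of untreated replicates 1 and 2 and 24 h replicates 1 and 2, and 5 without 24 h replicate 3. It was also 12 with array weights, 9 with dim genes left out, 7 with a trended and robust variance and 6 with values raised to a floor of 4. Of 38 stress and wound keratinocyte genes 1 rose (2.63%, beside 2.55% of all genes tested), with a median of -0.23. It was Slpi, an inhibitor of leukocyte proteases that glands also make, at 1.52 (SE 0.29, adjusted p = 0.00835), lost on omitting 24 h replicate 3 (highest adjusted p 0.0517). That list had 2 higher and 2 lower members without 6 h replicate 1, and 1 lower without untreated replicate 1 or 24 h replicate 3.

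Sebaceous gland genes gave 4 lower and 1 higher of 28, with a median of -0.22; the higher one was Krt7, described below with the gland genes. Cyp2g1, a cytochrome P450 bright in all 6 samples, read 12.20, 12.19 and 12.20 in untreated skin and 11.31, 11.20 and 11.01 at 24 h. The untreated values were nearly equal and every treated value lay below them, a difference of -1.02 ± 0.13 on the log2 scale (SE), 2.03-fold lower, with an adjusted p of 0.000311. Hsd3b6, an enzyme of steroid synthesis, read 8.37, 8.10 and 8.24 in untreated skin and 7.39, 7.29 and 6.91 at 24 h, a difference of -1.04 ± 0.14 on the log2 scale (SE), 2.06-fold lower, with an adjusted p of 0.000455. Elovl6, an elongase of saturated fatty acids, fell by 0.74 (SE 0.14, adjusted p = 0.00847), Elovl4 fell by 0.52 (SE 0.13, adjusted p = 0.0375), and Elovl5 fell by 0.62 (SE 0.15, adjusted p = 0.0369). The calls for the last 2 were lost on omitting any one of untreated replicates 1, 2 and 3, 6 h replicate 3, and 24 h replicates 1 and 3 (highest adjusted p 0.151) for Elovl4 and on omitting any one of untreated replicates 1, 2 and 3, 1.5 h replicate 3, 6 h replicate 3, and 24 h replicate 3 (highest adjusted p 0.162) for Elovl5. All 3 belong to the 28 genes of fatty acid and cholesterol synthesis, where no other member was called and the median was -0.21. The count of lower members in that list was 1 without any one of the 3 untreated replicates, 6 h replicate 3 or 24 h replicate 3. Other P450 genes among the largest falls were Cyp17a1, a steroid enzyme, at -1.21 (SE 0.20, adjusted p = 0.00311), and Cyp2b19, a keratinocyte enzyme, at -1.23 (SE 0.24, adjusted p = 0.0101), lost on omitting untreated replicate 3 (highest adjusted p 0.0517).

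Hair follicle genes were uneven among the untreated samples. Of 38 measured, 1 fell (2.63%, beside 0.808% of all genes tested) and the median was -0.54. Untreated replicate 2 alone carried high hair values: the summed intensity of the list ranged over 5430 to 16500 among the untreated arrays and 3980 to 4630 among the treated ones. Krtap3-2, a keratin-associated protein of the hair shaft, read 9.46, 10.25 and 9.57 in untreated skin and 8.66, 8.67 and 9.14 at 24 h and fell by 0.93 (SE 0.22, adjusted p = 0.0345), lost on omitting any one of untreated replicates 2 and 3 and 24 h replicates 1 and 2 (highest adjusted p 0.135). Without untreated replicate 1 there were 9 lower members, and without untreated replicate 2 there was none, nor without untreated replicate 3 or 24 h replicate 1 or 2. Of 14 melanocyte genes 2 fell (14.3%, beside 0.808% of all genes tested), with a median of -0.24. Dct, a pigment enzyme, read 6.03, 6.85 and 6.90 in untreated skin and 5.63, 5.68 and 5.36 at 24 h and fell by 1.04 (SE 0.21, adjusted p = 0.0145), lost on omitting any one of untreated replicates 2 and 3 and 24 h replicate 3 (highest adjusted p 0.0785). Tyr, which encodes tyrosinase, the enzyme altered in albino strains such as Balb/c, was dim in all 6 samples and fell by 0.68 (SE 0.16, adjusted p = 0.0307), lost on omitting any one of untreated replicates 2 and 3 and 24 h replicates 1 and 3 (highest adjusted p 0.138) and, with values raised to a floor of 4, at a change of 0. How far hair content moved with the epidermal, gland and melanocyte changes was not tested.

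Small numbers were called in the signalling lists. Among all genes tested 2.55% were higher and 0.808% lower. The immediate early list, at 3.45% higher, lay near the first share, and a single call is no result about a list. Of 15 genes of NF-kB subunits and feedback 2 rose: Ikbke, a kinase of the interferon pathway, at 0.71 (SE 0.11, adjusted p = 0.00249), and Bcl3, a nuclear cofactor of NF-kB, at 0.96 (SE 0.22, adjusted p = 0.0266), lost on omitting any one of untreated replicates 1 and 2 and 24 h replicates 1 and 2 (highest adjusted p 0.116). Of 16 SOCS and signal transducer genes 3 rose, the third after Stat2 and Stat4 being Ptpn6, a leukocyte phosphatase, at 0.68 (SE 0.17, adjusted p = 0.0448), lost on omitting any one of untreated replicates 1, 2 and 3, 1.5 h replicates 2 and 3, 6 h replicate 3, and 24 h replicates 2 and 3 (highest adjusted p 0.176). Of 29 immediate early genes Dusp2, a phosphatase of activated leukocytes, rose by 0.61 (SE 0.12, adjusted p = 0.0108), lost on omitting untreated replicate 3 (highest adjusted p 0.0611), and Egr3 fell by 0.74 (SE 0.14, adjusted p = 0.00978), lost on omitting untreated replicate 2 (highest adjusted p 0.0537). Of 20 metalloproteinase and inhibitor genes 4 rose and 1 fell, Timp1 and Timp2 among them; without single libraries from the untreated and 24 h groups the count of higher members was as low as 1 (without untreated replicate 2 or 24 h replicate 3). Of 19 endothelial markers 1 rose, Pdpn, a podoplanin that macrophages and lymphatic vessels share, at 0.72 (SE 0.13, adjusted p = 0.00449). Of 20 prostaglandin, leukotriene and sterol genes Ch25h rose and Alox12b, a lipoxygenase of the skin barrier, fell by 0.63 (SE 0.16, adjusted p = 0.0496), lost on omitting any one of untreated replicates 1, 2 and 3, 1.5 h replicates 2 and 3, 6 h replicate 2, and 24 h replicates 1 and 2 (highest adjusted p 0.157).

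Clock genes and hormone-responsive genes showed single changes, beside 2.55% higher and 0.808% lower among all genes tested. Of 17 circadian clock genes 3 fell and 1 rose, with a median of -0.28. Per3 read 7.41, 7.41 and 7.42 in untreated skin and 6.78, 6.76 and 6.57 at 24 h; the untreated values were almost equal, and the difference was -0.71 ± 0.13 on the log2 scale (SE), 1.63-fold lower, with an adjusted p of 0.00516. Dbp, an output factor of the clock, read 8.71, 8.54 and 8.59 in untreated skin and 8.12, 8.01 and 7.95 at 24 h, a difference of -0.59 ± 0.10 on the log2 scale (SE), 1.5-fold lower, with an adjusted p of 0.00407. Per2 fell by 0.54 (SE 0.13, adjusted p = 0.0319), lost on omitting any one of untreated replicates 2 and 3 and 24 h replicates 1, 2 and 3 (highest adjusted p 0.144). Nfil3, a factor that opposes Dbp and is also needed for killer cell development, rose by 0.54 (SE 0.14, adjusted p = 0.0447), lost on omitting any one of untreated replicates 1, 2 and 3, 1.5 h replicate 3, 6 h replicate 2, and 24 h replicates 1, 2 and 3 (highest adjusted p 0.169). Without 1.5 h replicate 1, 5 clock genes were lower. Of 16 glucocorticoid-responsive genes 3 rose, Lcn2, Hsd11b1 and Mt2, and 1 fell; 1 rose without any one of untreated replicate 3 and 24 h replicates 2 and 3. Hsd11b1, which makes active glucocorticoid, rose by 1.24 (SE 0.29, adjusted p = 0.033), lost on omitting any one of untreated replicates 2 and 3 and 24 h replicates 1, 2 and 3 (highest adjusted p 0.142), and Mt2, a metallothionein, by 0.55 (SE 0.11, adjusted p = 0.016), lost on omitting any one of untreated replicates 1 and 3 and 24 h replicates 2 and 3 (highest adjusted p 0.088). Fkbp5, a glucocorticoid-induced chaperone, fell by 0.57 (SE 0.12, adjusted p = 0.0171), lost on omitting any one of untreated replicates 1 and 3 and 24 h replicates 1 and 3 (highest adjusted p 0.0822). The E-box CACGTG, the element of the clock factors, stood in 5 of 15 clock gene promoters and in 7.04% of all.

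Several lists of structural tissue had no called member in the fit of all libraries. None was called among 38 collagen and fibroblast matrix genes (median -0.17), 16 smooth muscle genes (-0.22), 11 Schwann cell and nerve genes (-0.04), 5 erythrocyte genes (0.13), 23 adipocyte genes (0.03), 34 mitochondrial respiration genes (0.12) and 37 skeletal muscle genes (0.07). Nor was any called among 44 cell division genes, with a median of -0.13; the proliferation marker Mki67 changed by -0.48 (SE 0.14, adjusted p = 0.0954). Col1a1, the main dermal collagen gene, read 9.87, 10.39 and 10.52 in untreated skin and 9.95, 10.51 and 8.81 at 24 h, with 24 h replicate 3 alone below the rest, and changed by -0.51 (SE 0.34, adjusted p = 0.489). Tnnc1, the slow-muscle troponin C, read 4.76, 4.72 and 4.69 in untreated skin and 10.58, 4.67 and 9.31 at 24 h. It was high in 24 h replicates 1 and 3 and at the untreated level in replicate 2, and Myl2, a slow-muscle myosin light chain, split the same way at 10.57, 4.29 and 9.33. A like split stood at 1.5 h, where Tnnc1 read 10.17, 10.19 and 4.95 and Myl2 read 10.56, 10.43 and 5.38. The muscle content of the biopsies was not tested. Without 24 h replicate 2, 3 muscle genes were called higher, among them Tnnc1 (adjusted p = 0.0406) and Myl2 (adjusted p = 0.0495), and 1 Schwann cell gene and 1 cell division gene were lower. In the collagen list 1 gene was lower without untreated replicate 1 or 24 h replicate 2, and in the muscle list 1 was lower without 24 h replicate 1.

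Few genes of glandular epithelium passed the test, and which did depended on the samples fitted. Of 23 measured 3 rose, Ltf, Krt8 and Krt7, with a median of 0.47, and the summed intensity ranged over 1590 to 1650 among the untreated arrays and 2590 to 3510 among the treated ones. Krt8, a keratin of simple epithelia, read 6.80, 7.11 and 7.02 in untreated skin and 8.33, 8.07 and 8.24 at 24 h and rose by 1.23 (SE 0.25, adjusted p = 0.0146), lost on omitting any one of untreated replicate 1 and 24 h replicates 1 and 3 (highest adjusted p 0.0625). Krt7, its ductal relative, rose by 1.11 (SE 0.25, adjusted p = 0.0289), lost on omitting any one of untreated replicates 1, 2 and 3 and 24 h replicates 1 and 3 (highest adjusted p 0.106), and Ltf as above. Krt18, the partner of Krt8, was named after its values were seen: it read 5.51, 5.56 and 5.92 in untreated skin and 8.79, 8.13 and 8.52 at 24 h, with no overlap, yet the change of 2.82 (SE 0.80, adjusted p = 0.0802) did not pass the test over all 12 arrays. Csn3, a milk protein gene named likewise, read 3.70, 3.54 and 4.26 in untreated skin and 6.64, 6.10 and 7.19 at 24 h, a change of 2.81 (SE 0.81, adjusted p = 0.0842). Without 6 h replicate 1, 10 members of the list were higher; fitted with the 6 arrays alone 11 were, with array weights 7, with the replicate number as a block 5, and with values raised to a floor of 4 none. Without untreated replicate 1, or 24 h replicate 1 or 3, none was, and without untreated replicate 2 or 3 there was 1. The part of gland content in the rises of Ltf and Slpi was not tested.

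The comparison with 6 h, which holds no untreated sample, placed the 24 h state in time. It called 685 genes (3.44% of the genes tested), 404 higher at 24 h (2.03%) and 281 lower (1.41%). That split, 59% higher, depended on the scaling: it was 80.2% with arrays centred on their medians, 40.1% after a further quantile normalization and 35.9% after cyclic loess. Centring moved the median of all genes from 0.02 to 0.11. Leaving out 6 h replicate 2 or 3 took the count to 142 or 304, and leaving out 24 h replicate 3 or 1 took it to 188 or 372, so differences named below that were lost in such a fit carry a remark. Of the 509 genes above untreated at 24 h, 92 stood below their 6 h level, 82 above it, and 335 had no call against 6 h. The 82 became 30 and 45 on leaving out 6 h replicates 2 and 3 in turn, and 32 on leaving out 24 h replicate 3. The 92 became 52, 53 and 59 without 6 h replicate 2, 24 h replicate 3 and 24 h replicate 1.

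About as many interferon-stimulated genes stood below their 6 h level as had no call against it. Of the 47 type I interferon-stimulated genes, all above untreated, 24 stood below their 6 h level (1.41% of all genes did) and 1 above it (2.03%), with a median difference of -0.7. Cmpk2, which encodes a nucleotide kinase and neighbours Rsad2, had been at 10.25, 10.38 and 10.22 at 6 h and was at 7.79, 7.82 and 7.57 at 24 h. No 24 h value reached the 6 h range, a difference of -2.56 (SE 0.14, adjusted p = 1.36e-06). Rsad2 stood -2.15 (SE 0.25, adjusted p = 0.000717) from its 6 h level, Mx1 -2.43 (SE 0.33, adjusted p = 0.00226) and Mx2 -2.27 (SE 0.24, adjusted p = 0.000376). Cxcl10 had been at 11.85, 12.12 and 12.14 at 6 h, a difference of -1.95 (SE 0.24, adjusted p = 0.000974). Ifnb1 stood -1.51 (SE 0.16, adjusted p = 0.000382) from its 6 h level and Ch25h -2.49 (SE 0.32, adjusted p = 0.00161). The cytokine Il10 stood -1.31 (SE 0.19, adjusted p = 0.00346) from 6 h and Tnfsf10 -1.81 (SE 0.20, adjusted p = 0.000398). Among the sensors, Ifih1 and Ddx58 stood below 6 h, with differences of -1.32 (SE 0.11, adjusted p = 4.64e-05) and -1.07 (SE 0.17, adjusted p = 0.00469). The member of the list above its 6 h level was Bst2, at 0.71 (SE 0.14, adjusted p = 0.0202), lost on omitting any one of 6 h replicates 2 and 3 and 24 h replicates 1 and 3 (highest adjusted p 0.088).

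Other interferon targets showed no call between 6 h and 24 h. Irf7 had been at 10.40, 9.82 and 10.07 at 6 h, a difference of 0.39 (SE 0.23, adjusted p = 0.354). Cxcl9 differed by 0.06 (SE 0.25, adjusted p = 0.932) and Ccl5 by 0.39 (SE 0.37, adjusted p = 0.591). Fcgr1 differed by 0.01 (SE 0.23, adjusted p = 0.983) and Gbp3 by -0.23 (SE 0.15, adjusted p = 0.407). A missed threshold does not show that a level stayed the same.

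Killer cell genes and some myeloid genes were still above their 6 h level. Gzmb had been at 6.91, 6.96 and 6.61 at 6 h, and its 24 h values exceeded all of these, a difference of 2.79 (SE 0.12, adjusted p = 7e-08). Gzma had been at 6.32, 6.14 and 6.09 at 6 h, a difference of 2.62 (SE 0.19, adjusted p = 2.11e-05). Of the 27 killer cell genes 9 stood above 6 h and none below, among them Ncr1 at 1.31 (SE 0.21, adjusted p = 0.00525) and Il2rb at 1.31 (SE 0.18, adjusted p = 0.00231). Clec12a, an inhibitory lectin of myeloid cells, had been at 5.54, 5.41 and 5.67 at 6 h, close to its untreated 6.06, 5.34 and 5.49, and was at 7.56, 8.08 and 8.70 at 24 h, a difference of 2.58 (SE 0.28, adjusted p = 0.000376). Lair1, a collagen-binding inhibitory receptor of leukocytes, stood 2.20 (SE 0.16, adjusted p = 2.11e-05) above 6 h, Cd300ld, an activating myeloid receptor, 2.02 (SE 0.19, adjusted p = 0.000143), and Aif1, a calcium-binding protein of macrophages, 1.995 (SE 0.20, adjusted p = 0.000267). Saa3 had been at 8.84, 9.28 and 9.91 at 6 h, a difference of 1.56 (SE 0.23, adjusted p = 0.0035). Gpr65, an acid-sensing receptor of leukocytes, stood above 6 h by 1.36 (SE 0.22, adjusted p = 0.00567) and Cd72 by 1.15 (SE 0.17, adjusted p = 0.00429). Ubd, a ubiquitin-like modifier that marks proteins for the proteasome, read 4.07, 4.16 and 3.72 in untreated skin and 7.13, 7.52 and 8.10 at 24 h, a difference from untreated of 3.60 ± 0.42 on the log2 scale (SE), 12.1-fold higher, with an adjusted p of 0.000121. It stood 2.05 (SE 0.42, adjusted p = 0.0202) above 6 h, a call lost on omitting any one of 6 h replicates 2 and 3 and 24 h replicate 3 (highest adjusted p 0.107). Ccr2 stood 1.33 (SE 0.24, adjusted p = 0.0104) above 6 h, lost on omitting either of 6 h replicate 2 and 24 h replicate 3 (highest adjusted p 0.0674).

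**Figure D5:**
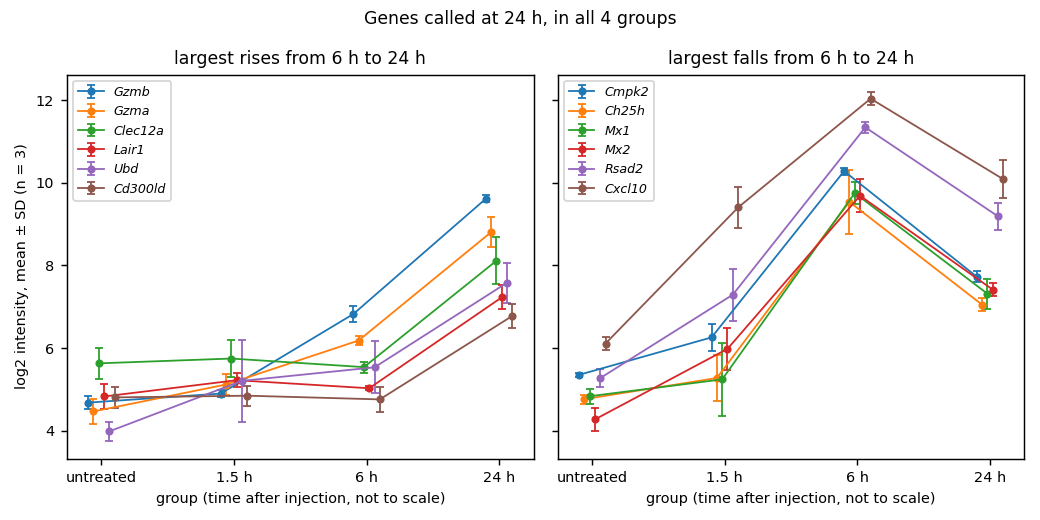
Mean log2 intensity ± SD (n = 3 samples) of the 6 genes with the largest rises (left) and the 6 with the largest falls (right) from 6 h to 24 h among genes called against untreated skin, in all 4 groups; the horizontal axis is not to scale. The genes on the left lie highest at 24 h, and those on the right peak at 6 h and stay above untreated at 24 h.

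Of the 161 genes below untreated at 24 h, 14 stood below their 6 h level, 1 above it, and 146 had no call. The 1 was Dbp, which had been at 6.88, 6.80 and 6.77 at 6 h, lower than in either group compared here, a difference of 1.21 (SE 0.10, adjusted p = 4.27e-05). The 14 became 0 without 6 h replicate 2, 1 without 24 h replicate 3, 5 without untreated replicate 2 or 3, 6 without 6 h replicate 3 and 9 without untreated replicate 1. Hrnr had been at 10.38, 10.67 and 10.55 at 6 h and stood -0.58 (SE 0.11, adjusted p = 0.014) from that level, lost on omitting either of 6 h replicate 2 and 24 h replicate 3 (highest adjusted p 0.0801). At 6 h, 1215 genes had been called against untreated skin (6.09%), 674 higher (3.38%) and 541 lower (2.71%); that comparison shares its untreated samples with the one at 24 h.

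Against 1.5 h, 580 genes were called (2.91% of the genes tested), 447 higher at 24 h (2.24%) and 133 lower (0.667%). The count was 321 without 1.5 h replicate 2 and 346 without 24 h replicate 2. Of the 509 genes above untreated, 58 stood above both 6 h and 1.5 h. They included Saa3, Gzmb, Gzma, Aif1 and Gpr65, and also Ubd and Bst2, whose calls against 6 h were lost as given above, and Clec4e, which stood 1.16 above 6 h (adjusted p = 0.0226), lost on omitting either of 6 h replicate 2 and 24 h replicate 3 (highest adjusted p 0.0879). The count of 58 became 27 and 37 on leaving out 6 h replicates 2 and 3 in turn, and 28 on leaving out 24 h replicate 3. Fap, which encodes a protease of activated fibroblasts, and Hrnr were the 2 genes below untreated that stood below both times. Fap read 7.91, 7.62 and 8.03 in untreated skin and 6.89, 6.92 and 6.88 at 24 h, a difference of -0.96 ± 0.15 on the log2 scale (SE), 1.94-fold lower, with an adjusted p of 0.00138; its difference from 6 h was -0.59 (SE 0.15, adjusted p = 0.0454), a call lost in 10 of the 12 leave-one-out fits (adjusted p up to 0.159).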

How the data were processed

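The authors deposited 1 table of log2 intensities for 12 arrays; per the submitters' processing notes they were made with RMA in Affymetrix Expression Console 1.1. No depth is attached to array values, and the 3 arrays a group limit the precision. The table held 35556 probe sets. The platform annotation listed 23410 of them, 21789 with 1 gene symbol and 1621 with several, which were left out with the 12146 not listed. Of the gene IDs, 21698 were found in RefSeq and no symbol changed. For 999 genes with several probe sets the one with the highest mean was kept, leaving 19938 genes. The table held 0 other per-sample columns.

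All 4 groups were fitted together with limma 3.58.1 (lmFit, eBayes) under R 4.3.3. The residual degrees of freedom numbered 8 and the prior ones 5.24. Contrasts were 24 h minus untreated, minus 6 h and minus 1.5 h, with Benjamini-Hochberg adjustment over all genes, and a gene counted as changed at an adjusted p under 0.05. "Rose" and "fell" are used for changed genes. An exact permutation test of 3 against 3 cannot go below 0.1 and was not used. On simulated data for 24 h against untreated the fit called 87.2% of genes raised by 1 on the log2 scale, 87.8% of those lowered by 1 and 99.5% of those raised by 2, with 8.9 unchanged genes called on average among 19938. The simulated noise was independent between genes, which that of real arrays need not be.

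Named genes are the 25 largest rises and 15 largest falls among changed genes with non-overlapping groups, up to 5 changed members of each list and the largest changed the other way, up to 2 members where none changed, 13 genes of interest, and the leading differences from 6 h and from both earlier times. Others are said to be named after their values were seen. The members and lists were chosen with earlier results of these data known. Alternatives were the scaling, the variance model, the probe and dim-gene rules, the threshold, the replicate number as a block and leaving out each library.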

Additional observations from a re-analysis of the deposited data

Results flagged for a closer look

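In 29 of the 167 named genes the level at 24 h differed from that at 6 h in a direct test between the 2 treated groups, and did so whichever of the 12 libraries was left out. Some of the named genes were chosen by this same difference, so their count is no test of the set. Among all genes tested, 3.44% were called against 6 h in the fit of all libraries. Values are 24 h minus 6 h on the log2 scale. Below their 6 h level were 17 genes. Antiviral effectors and sensors of RNA were Cmpk2 -2.56, Mx1 -2.43, Mx2 -2.27, Rsad2 -2.15, Ifit2 -1.72, Ifit1 -1.67, Ifih1 -1.32 and Ddx58 -1.07. Cytokines, chemokines and their receptors were Cxcl10 -1.95, Ccrl2 -1.83, Tnfsf10 -1.81, Ifnb1 -1.51, Cd40 -1.46 and Il10 -1.31, and enzymes and a metallothionein were Ch25h -2.49, Gch1 -1.2 and Mt2 -0.78. Above their 6 h level were 12 genes. Genes of killer cells were Gzmb 2.79, Gzma 2.62, Ncr1 1.31 and Il2rb 1.31, receptors and markers of leukocytes were Clec12a 2.58, Lair1 2.2, Cd300ld 2.02, Aif1 2.0, Cd72 1.15 and Gpr65 1.36, and the others were Saa3 1.56 and Dbp 1.21. All but Dbp stood above untreated skin at 24 h, and Dbp stood below it.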

How the results depend on the processing

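Counts of changed genes are given in the order 24 h against untreated (670), against 6 h (685) and against 1.5 h (580). They were 424, 239 and 340 with no moderation of the variance, 361, 149 and 309 at an adjusted p under 0.01, and 292, 135 and 232 with at least a 2-fold change required. Leaving out 1 library gave 423 to 756, 142 to 877 and 321 to 653. The comparison with 6 h also gave 1055 with dim genes left out, 421 with values raised to a floor of 4, 1133 with arrays centred on their medians and 247 with only the 2 groups fitted. The cause was not tested. Other scalings, probe rules and variance models kept these 3 totals within 1.5 times, though not the count of lower genes, which is given above by setting. Of the 147 named genes called at 24 h against untreated, 105 were called in every leave-one-out fit, and none changed sign under any alternative. Calls lost numbered 44 with no moderation, 35 with the floor, 7 with centring, 5 with cyclic loess and 2 with quantile normalization. Medians of the metalloproteinase, prostaglandin, Schwann cell, immediate early and Langerhans lists crossed 0 under at least 1 scaling.

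The replicate numbers gave no sign of a pairing: deviations of same-numbered untreated and 24 h arrays correlated at -0.07, 0.03 and -0.12. Arrays with different numbers gave -0.1 to 0.15. Such weak values cannot show whether the numbers stand for a shared batch. With the number as a block the 3 counts were 670, 616 and 593, and 598 of the 670 genes were called in both fits. The block ended 5 of the 147 calls of named genes.

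With 3 arrays a group, changes of 0.5 on the log2 scale were called in 34.1% of simulated cases. The simulation drew independent noise for each gene and planted fewer changes than were called here, so its rates need not hold for these data. A missed call does not show that a gene was unchanged.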

Other observations

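Gene families chosen by the start of their symbol after values were seen held further myeloid receptors among the rises. They share members with the gene lists, such as Clec4e, so the counts repeat some rises given above. Of 33 Clec genes, which encode C-type lectins, 6 were higher (Clec4e, Clec12a, Clec4d, Clec4a3, Clec4a1 and Clec4a2) and 1 was lower (Clec4g). Of 8 Cd300 genes, paired receptors of myeloid cells, 3 were higher. Of 10 Toll-like receptor genes 5 were higher, led by Tlr13, a sensor of bacterial ribosomal RNA, at 2.43 on the log2 scale, and the others were Tlr1, Tlr9, Tlr3 and Tlr2. Of 45 proteasome genes 8 were higher. Of 291 microRNA genes 1 was higher (Mir434) and 3 were lower (Mir365-1, Mir374b and Mir677), beside 2.55% higher and 0.808% lower among all genes.

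Of 7 Cd209 genes 3 were lower and none higher, with a family median of -0.87. Of 87 cytochrome P450 genes none was higher and 4 were lower, Cyp17a1, Cyp2ab1, Cyp2b19 and Cyp2g1. Of 44 keratin-associated protein genes 1 was lower (Krtap3-2, beside 0.808% of all genes tested), with a family median of -1.08. Krtap3-2 belongs to the hair follicle list, whose high values lay in untreated replicate 2. Without that array the median of the hair list was -0.13 in place of -0.54. How far that array set the family median was not tested. The remaining genes among the 15 largest falls were Hamp2, a relative of the iron hormone hepcidin, at -0.98, Kcnrg, a potassium channel regulator, at -0.99, Scgb3a2, a secretoglobin, at -1.13 and Carns1, which makes carnosine, at -1.16. Their calls were lost without 7, 5, 7 and 3 of the 12 libraries, with adjusted p up to 0.175, 0.153, 0.171 and 0.0789.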
